A study of Mus musculus with 15 samples.

Results

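Toll-like receptors and the proteins that carry their signal were measured in mouse XCR1+ dendritic cells (DCs) as 10 transcripts. They were the endosomal receptors Tlr3, Tlr7, Tlr9, Tlr12 and Tlr13, the surface receptors Tlr2 and Tlr4, the adaptor Myd88, its inhibitor Irak3 and the receptor chaperone Unc93b1. A probe set, the group of short probes that reports 1 transcript, counted for a gene only if the platform annotation gave it exactly 1 symbol. A gene with several such probe sets was read from whichever of them averaged highest across the 15 arrays. All 10 genes had a probe set, among 18194 genes in the series, and all 10 were among the 13629 genes tested. Passing the filter on dim signals (a log2 value above 4.39, the 40th percentile, in at least 3 arrays) rested for Irak3 on 8 CCR7+ arrays alone and for Tlr7 on 3 spleen arrays.

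The arrays (Affymetrix, mouse) hold DCs sorted from thymus and spleen as CD11c+ CD317- CD172a- cells, either CD117+ CCR7- (called immature) or CD117- CCR7+ (called mature). There were 5 groups of 3 arrays. Untreated mice gave thymus CCR7-, thymus CCR7+, spleen CCR7- and spleen CCR7+ cells, and mice given 10 µg polyI:C intraperitoneally 18 h before organ harvest gave spleen CCR7+ cells. CCR7- cells of treated mice were not analysed here, so maturation and treatment cannot be told apart when the treated cells are set against spleen CCR7- cells. With strain, sex, age and the number of mice behind a sample not given in the sources used here, the p-values measure only the spread between these samples, which may be technical.

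Toll-like receptors recognise microbial molecules and pass the signal through adaptor proteins to NF-kB and interferon regulatory factors. Surface receptors mainly bind lipids and lipoproteins of microbes, while endosomal receptors bind nucleic acids or, for Tlr12, a parasite protein, and the nucleic acid sensors depend on Unc93b1 to reach endosomes. Most of the family signals through Myd88, whereas Tlr3, which binds double-stranded RNA such as the synthetic polyI:C, signals through Ticam1 (TRIF), and XCR1+ DCs are known for abundant Tlr3.

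The 250 bases before the RefSeq transcription start (GRCm38.p6) were at hand for 7 of the 10 genes, as 8 sequences. Tlr4, Tlr7 and Unc93b1 are named only. Each sequence was searched on both strands for the core of the interferon-stimulated response element, the NF-kB motif, GAGGAAGT (PU.1-type ETS) and TGACTCA (AP-1). The letters matched for the first pair stand in capitals in the Myd88 and Tlr3 sequences, with the middle 2 of their 10 bases free. No promoter held more than 1 match. The Tlr3 sequence held the NF-kB letters 211 to 202 bases before the start, a motif with a match in 1.21% of 32851 promoters searched alike. Myd88 held the response element core 40 to 31 bases before the start, against 2.98% of all promoters. Tlr9 held the AP-1 letters 58 to 52 bases before the start, against 4.46%. The ETS letters, matched in 2.44% of all promoters, were in none of the 8 sequences, and the Irak3, Tlr12, Tlr13 and Tlr2 sequences held none of the 4 motifs. Shown are the promoters of Tlr3, Tlr12 and Myd88, whose transcripts were lower in all 3 kinds of mature cells, of Irak3, higher in all 3, and of Tlr13, whose change differed between tissues. They run 5′ to 3′ and end at the base before the start, with matches in capitals. The coordinates are chr8:45410381-45410630 for Tlr3, chr4:128618620-128618869 for Tlr12, chr9:119340019-119340268 for Myd88 and chr10:120202131-120202380 for the upstream of 2 Irak3 starts, all on the minus strand, and chrX:106143025-106143274 on the plus strand for Tlr13.
Tlr3: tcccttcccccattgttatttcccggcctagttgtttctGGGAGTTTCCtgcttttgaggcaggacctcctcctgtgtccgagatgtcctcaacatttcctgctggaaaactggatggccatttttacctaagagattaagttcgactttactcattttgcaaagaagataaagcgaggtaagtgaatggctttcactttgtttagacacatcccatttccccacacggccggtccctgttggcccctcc
Tlr12: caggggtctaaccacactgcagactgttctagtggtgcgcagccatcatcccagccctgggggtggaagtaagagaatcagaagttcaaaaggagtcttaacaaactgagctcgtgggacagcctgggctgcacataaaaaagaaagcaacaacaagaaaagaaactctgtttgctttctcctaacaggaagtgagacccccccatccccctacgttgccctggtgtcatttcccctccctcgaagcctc
Tlr13: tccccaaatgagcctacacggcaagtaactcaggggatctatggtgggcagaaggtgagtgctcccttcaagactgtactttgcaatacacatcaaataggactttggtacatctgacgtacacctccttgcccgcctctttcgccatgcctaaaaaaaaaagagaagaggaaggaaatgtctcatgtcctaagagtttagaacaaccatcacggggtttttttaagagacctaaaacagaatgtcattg
Myd88: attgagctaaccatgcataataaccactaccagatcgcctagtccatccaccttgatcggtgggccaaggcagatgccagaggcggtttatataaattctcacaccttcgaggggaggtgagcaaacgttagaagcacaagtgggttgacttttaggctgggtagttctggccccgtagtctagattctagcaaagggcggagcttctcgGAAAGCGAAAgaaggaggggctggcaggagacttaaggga
Irak3: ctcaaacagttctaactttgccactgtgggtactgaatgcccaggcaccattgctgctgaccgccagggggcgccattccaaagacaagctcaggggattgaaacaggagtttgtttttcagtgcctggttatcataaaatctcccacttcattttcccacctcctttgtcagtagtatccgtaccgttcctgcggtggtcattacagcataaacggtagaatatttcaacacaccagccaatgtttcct
A match describes letters in this window and is not evidence of binding.

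The values are log2 RMA signals with array medians from 4.86 to 5.0. Ccr7 was at least 12.53 in the CCR7+ arrays and at most 9.22 in the CCR7- arrays, as the gates require. Kit (CD117) averaged 10.68 and 11.25 in thymus and spleen CCR7- cells, and 8.16, 8.61 and 8.33 in thymus, spleen and polyI:C CCR7+ cells. Itgax (CD11c), in the same order, averaged 9.43 and 9.80, and 6.31, 8.62 and 5.92. Bst2 (CD317, gated as absent) averaged 10.35 and 8.51, and 10.88, 9.21 and 11.93. Sirpa (CD172a, also gated as absent) averaged from 6.18 to 6.83. Transcript levels of Itgax and Bst2 thus varied between groups that share these gates. Array 1 of spleen CCR7+ stood apart, with the largest residual spread of the 15 (root mean square 0.378 log2) and the lowest array weight (0.308). Of 8 XCR1+ DC markers 7 had a probe set and all 7 exceeded 4.39 in every array, as did all 6 plasmacytoid DC markers, so that this threshold does not tell these cell types apart. Their summed level (log2 of the summed linear signals) was 14.7 to 14.9 in thymus CCR7- and 15.1 to 15.2 in spleen CCR7- cells. It was 12.9 to 13.2 in thymus CCR7+, 13.4 to 14.3 in spleen CCR7+ and 13.3 to 13.6 in polyI:C cells, and 6 of 7 markers were called lower with maturation in each tissue. Markers of B cells summed to 8.07 to 8.50 in thymus CCR7- and 8.62 to 10.9 in thymus CCR7+ arrays. In spleen they summed to 9.48 to 9.67 in CCR7-, 10.6 to 12.3 in CCR7+ and 9.63 to 10.3 in polyI:C arrays, with array 2 of spleen CCR7+ highest. Macrophage markers summed to 11.1 to 11.3 and 11.7 to 12.1 in thymus CCR7- and CCR7+. In spleen CCR7-, CCR7+ and polyI:C arrays they summed to 10.5 to 11.7, 11.8 to 12.4 and 11.1 to 11.6. In the thymus the brightest moved in opposite directions, Vcam1 from 10.08 to 11.67 and Csf1r from 10.16 to 7.65. Of the 7 macrophage markers tested there, 4 were called higher and 1 lower. Plasmacytoid DC markers ranged from 9.65 to 11.1 in the thymus and from 8.40 to 10.8 in the spleen arrays. T cell and thymocyte markers summed to 7.48 to 8.85 in thymus CCR7- and 9.47 to 11.1 in thymus CCR7+ arrays, with 2 of 5 called higher, and to 6.5 to 6.97 in the spleen arrays. Epithelial markers summed to 10.5 to 10.6 and 8.42 to 8.89 in these thymus groups and to 6.91 to 7.76 in the spleen. The thymus sums followed Epcam, which averaged 10.44 and 8.17 in CCR7- and CCR7+ cells. Foxn1, Psmb11 and Krt5 averaged from 3.93 to 5.82 there. The part of these cells in the results below was not tested. In bulk samples, fewer cells that carry a transcript and less of it per cell cannot be told apart.

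Transcript levels of 5 or 6 of the 10 genes were lower in mature cells, depending on the comparison. The 10 genes were chosen with earlier results of these data known, so their counts beside all genes are a description only. Comparisons were tested with limma over all 13629 genes, and genes with a Benjamini-Hochberg adjusted p below 0.05 are those referred to as called. In the thymus 6 genes were lower and 1 was higher in CCR7+ than in CCR7- cells, where 37.3% of all genes tested were called, 20.4% lower and 16.8% higher. In the untreated spleen 6 were lower and 1 was higher, against 36.5% of all genes called, 24.1% lower and 12.3% higher. In polyI:C cells against spleen CCR7- cells 5 were lower and 1 was higher, against 46.4% of all genes called, 28.0% lower and 18.4% higher. The median log2 change of the 10 was -0.74, -1.41 and -0.63 in the 3 comparisons, beside -0.06, -0.03 and 0.02 over all genes tested. The last 2 comparisons share the spleen CCR7- arrays. Tlr3, Tlr12, Tlr4, Myd88 and Unc93b1 were called lower in all 3, Irak3 higher in all 3, and Tlr7 and Tlr9 in none. The arrays of CCR7+ and CCR7- cells did not overlap for any of the 10 genes called in these comparisons. The share of all genes without overlap is not given here, so this carries no weight beyond the calls.

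**Figure D1:**
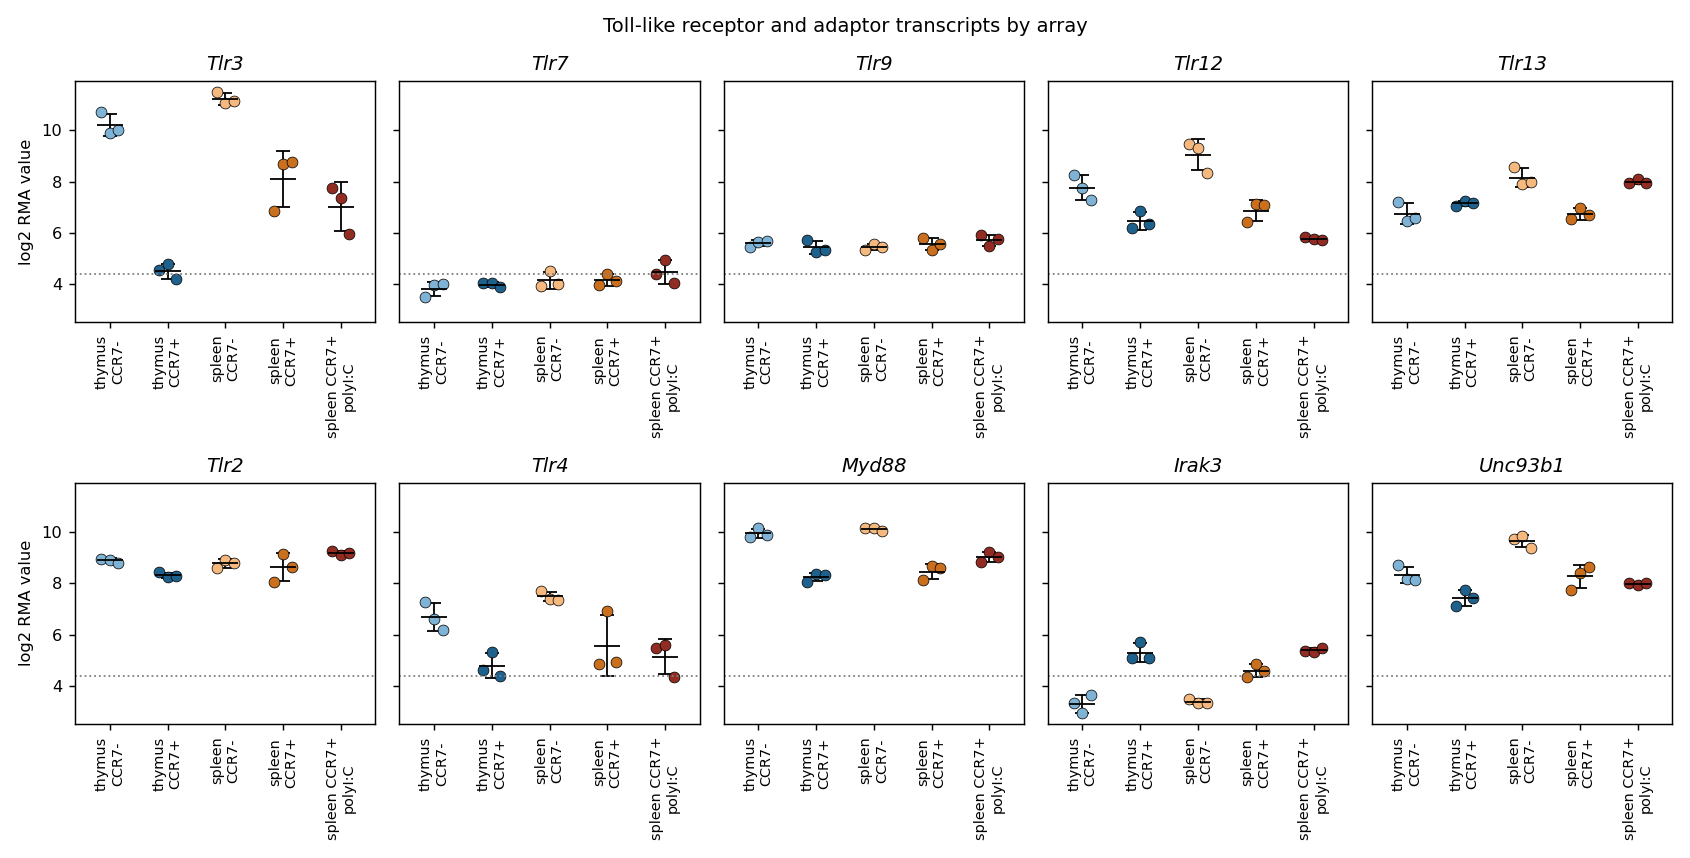
Each panel plots the log2 RMA value (y axis) of 1 of the 10 genes in the 5 sample groups (x axis); points are arrays 1 to 3 from left to right, the long bar is the mean and the whiskers are the SD (n = 3). The dotted line is the filter value of 4.39: Tlr3 lies near it in the thymus CCR7+ arrays only, and Irak3 lies below it in the CCR7- arrays. Heights are comparable within a panel, not between genes.

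Tlr3 (probe set 1422782_s_at), the sensor of double-stranded RNA, had the largest fall among the 10 genes in each of the 3 maturation comparisons. In the thymus its log2 values were 10.70, 9.89 and 10.01 in CCR7- arrays and 4.55, 4.78 and 4.20 in CCR7+ arrays. In the untreated spleen they were 11.50, 11.06 and 11.15 in CCR7- arrays and 6.86, 8.68 and 8.77 in CCR7+ arrays. After polyI:C they were 7.74, 7.37 and 5.95. Mature thymic cells were thus near the filter value, while all mature splenic arrays stayed above them. The change was -5.70 in the thymus (SE 0.49, adjusted p = 5.34e-07, 51.8-fold), -3.14 in the untreated spleen (SE 0.49, adjusted p = 0.000202, 8.79-fold) and -4.22 for polyI:C cells (SE 0.49, adjusted p = 6.35e-06, 18.6-fold). RMA gives no detection call, and folds against values near background are compressed.

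Among mature cells, Tlr3 was 3.59 lower on the log2 scale in thymus than in untreated spleen (log2 change -3.59, SE 0.49, adjusted p = 0.00023). Against polyI:C spleen cells it was lower by 2.51 (log2 change -2.51, adjusted p = 0.00187). The thymus and spleen changes differed by -2.56 (95% confidence interval -4.04 to -1.08), which missed the threshold (adjusted p = 0.0637). This difference passed when the polyI:C arrays were left out (adjusted p = 0.0403), with a replicate block within each CCR7 state on those same 12 arrays (adjusted p = 0.0159) and without array 1 of spleen CCR7+ (-3.18, adjusted p = 0.00533), the array with the lowest Tlr3 value of its group. The other Tlr3 probe set (1422781_at) gave changes of -4.41 in the thymus, -3.51 in the spleen and -4.35 for polyI:C cells, so that the tissues differed there by only -0.90. With it the gap between mature thymic and mature splenic cells was -2.19 (adjusted p = 0.00615), and that to polyI:C cells -1.34 (adjusted p = 0.0486). The order of Tlr3 group means was spleen CCR7-, thymus CCR7-, spleen CCR7+, polyI:C and thymus CCR7+, and only the arrays of spleen CCR7+ and polyI:C overlapped. The XCR1+ DC marker Xcr1 averaged 11.40 and 5.25 in thymic CCR7- and CCR7+ cells, 11.58 and 8.03 in spleen CCR7- and CCR7+ cells and 7.54 after polyI:C. Its part in the Tlr3 values was not tested.

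Tlr12 (probe set 1438329_at), which binds profilin of protozoan parasites, was also lower in all 3 kinds of mature cells. In the thymus its log2 values were 8.25, 7.76 and 7.29 in CCR7- and 6.18, 6.85 and 6.33 in CCR7+ arrays. In the spleen they were 9.47, 9.33 and 8.35 in CCR7-, 6.40, 7.12 and 7.08 in CCR7+ and 5.84, 5.74 and 5.71 in polyI:C arrays. The polyI:C arrays lay below all others, and spleen CCR7- arrays lay above all others. The changes were -1.32 in the thymus (adjusted p = 0.00352), -2.19 in the spleen (adjusted p = 9.49e-05) and -3.29 for polyI:C cells (adjusted p = 9.04e-07), each with an SE of 0.31. The tissue difference of 0.87 (95% confidence interval -0.07 to 1.81) missed the threshold at adjusted p = 0.365. Over the 12 untreated arrays it missed without a block (adjusted p = 0.417) and passed with a replicate block within each CCR7 state (adjusted p = 0.0351). A weaker Tlr12 probe set (1437931_at) gave changes of -0.23, -0.27 and -0.38, and the mean of both probe sets gave -0.78, -1.23 and -1.83, still called in all 3 comparisons.

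Tlr13 (probe set 1457753_at), the sensor of bacterial ribosomal RNA, was the 1 gene of the 10 whose maturation change differed between tissues by test. Its log2 values in the thymus were 7.21, 6.47 and 6.57 in CCR7- and 7.05, 7.23 and 7.18 in CCR7+ arrays, which overlapped. In the spleen they were 8.58, 7.89 and 8.0 in CCR7-, 6.52, 6.97 and 6.69 in CCR7+ and 7.94, 8.09 and 7.94 in polyI:C arrays. The untreated mature arrays were lowest in the spleen, and the polyI:C arrays lay within the range of spleen CCR7-. Tlr13 fell by 1.43 in the spleen (log2 change -1.43, SE 0.21, adjusted p = 0.00014) and had a change of 0.40 in the thymus that did not pass the test (95% confidence interval -0.05 to 0.86). The difference of 1.83 had an SE of 0.30 and an adjusted p of 0.00308, where 3.18% of all genes tested were called. It was called under all 28 alternatives tried, between 1.62 and 2.06.

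Tlr7, a sensor of single-stranded RNA, and Tlr9, a sensor of CpG DNA, were called in none of the 8 comparisons made. Tlr7 (probe set 1422010_at) ran from 3.50 to 4.95 over the 15 arrays, close to the filter value, and its other 2 probe sets exceeded that value in no array. Tlr7 changes were 0.15 in the thymus, 0.01 in the spleen and 0.32 for polyI:C cells, with 95% confidence intervals that reached from -0.48 to 0.81. Tlr9 (probe set 1422083_at) ran from 5.24 to 5.90, and all neighbouring groups overlapped in the order of its means. Its changes were -0.16 in the thymus, 0.11 in the spleen and 0.26 for polyI:C cells, with intervals that reached from -0.52 to 0.63. Changes of over 2-fold lay outside these intervals of Tlr7 and Tlr9, as far as dim probe sets can show change.

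**Figure D2:**
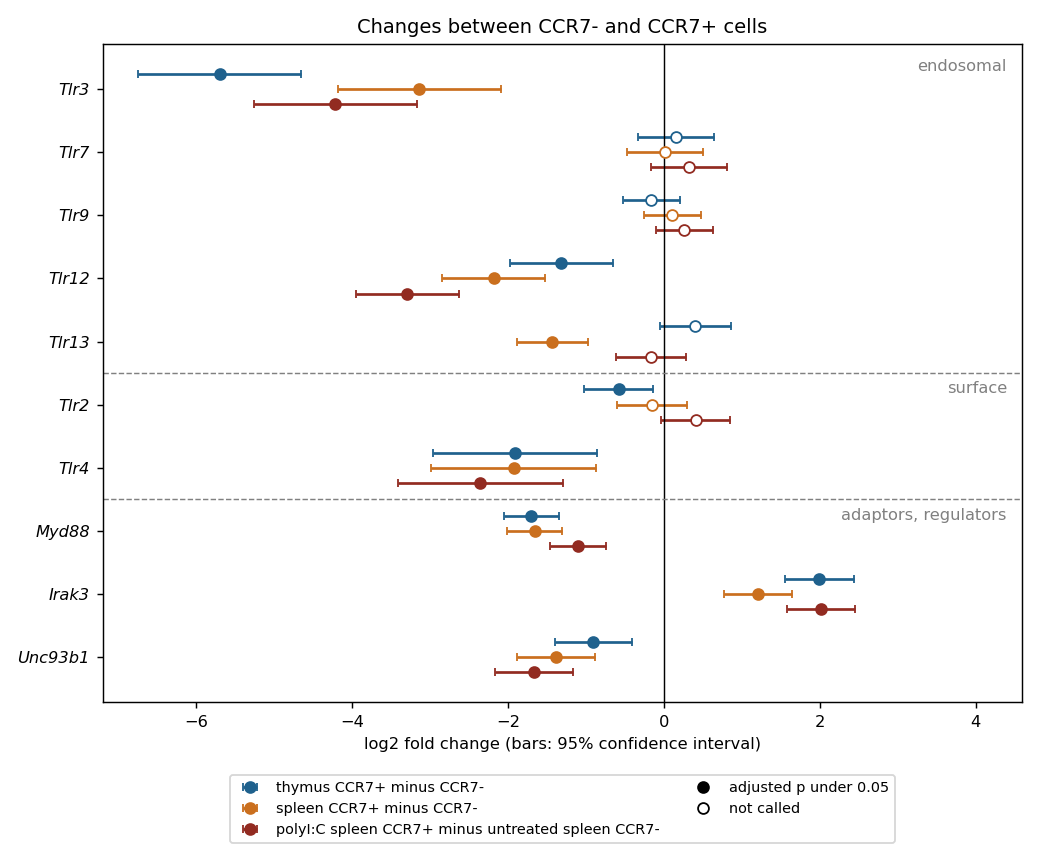
Log2 fold changes with 95% confidence intervals (x axis) for the 10 genes (y axis, ordered as endosomal receptors, surface receptors and adaptors with regulators) in thymus, untreated spleen and polyI:C spleen CCR7+ cells against CCR7- cells of the same organ. Filled points passed an adjusted p of 0.05: Tlr3 reaches -5.70, Irak3 is the only gene with filled points to the right of 0, and Tlr13 is filled in untreated spleen only.

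The surface receptors differed from each other. Tlr4 (probe set 1418162_at), the lipopolysaccharide receptor, had log2 values of 7.28, 6.59 and 6.19 in thymus CCR7- and 4.62, 5.32 and 4.4 in thymus CCR7+ arrays. In the spleen the values were 7.70, 7.40 and 7.37 in CCR7-, 4.84, 6.94 and 4.92 in CCR7+ and 5.46, 5.60 and 4.36 in polyI:C arrays. No mature array reached the immature arrays of its organ, and array 2 of spleen CCR7+ was far above the other arrays of its group. That array also had the highest B cell and macrophage marker sums (12.3 and 12.4), whose part in its Tlr4 value was not tested. The changes were -1.91 in the thymus (adjusted p = 0.00661), -1.93 in the spleen (adjusted p = 0.00675) and -2.35 for polyI:C cells (adjusted p = 0.00115), each with an SE of 0.49. Of the other 3 Tlr4 probe sets, 1418163_at gave changes of -0.92, -1.88 and -2.22 in these comparisons. The remaining pair exceeded the filter value in at most 1 array. The mean of all 4 Tlr4 probe sets gave -0.87, -1.23 and -1.48, still called in each.

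Tlr2 (probe set 1419132_at), which binds lipoproteins together with Tlr1 or Tlr6, varied little over the groups. Its log2 values were 8.95, 8.93 and 8.81 in thymus CCR7- and 8.43, 8.25 and 8.27 in thymus CCR7+ arrays, which did not overlap. In the spleen they were 8.59, 8.93 and 8.81 in CCR7-, 8.06, 9.15 and 8.66 in CCR7+ and 9.27, 9.11 and 9.18 in polyI:C arrays. The thymus change of -0.58 was called at an adjusted p of 0.0403 and lost when any thymus array was left out (adjusted p from 0.0563 to 0.107). The spleen change was -0.15 (95% confidence interval -0.60 to 0.29) and that of polyI:C cells 0.41 (-0.04 to 0.85), neither called. Mature thymic cells were 0.87 below polyI:C cells (log2 change -0.87, adjusted p = 0.00751).

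Myd88 (probe set 1419272_at), the adaptor used by Tlr2, Tlr4, Tlr7, Tlr9, Tlr12 and Tlr13, fell in mature cells of both organs by nearly the same amount. In the thymus its log2 values were 9.81, 10.14 and 9.90 in CCR7- and 8.07, 8.36 and 8.32 in CCR7+ arrays. In the spleen they were 10.16, 10.15 and 10.05 in CCR7-, 8.13, 8.67 and 8.59 in CCR7+ and 8.82, 9.21 and 9.02 in polyI:C arrays. All 6 immature arrays were above all 9 mature arrays, and the polyI:C arrays were the highest of the mature ones. The changes were -1.70 in the thymus (adjusted p = 1.75e-06), -1.66 in the spleen (adjusted p = 4.26e-06) and -1.10 for polyI:C cells (adjusted p = 6.74e-05), each with an SE of 0.16. The thymus and spleen changes differed by -0.05 (95% confidence interval -0.55 to 0.45).

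Unc93b1 (probe set 1423768_at), which carries nucleic acid-sensing receptors to endosomes, fell in the same 3 comparisons as Myd88. Its log2 values were 8.70, 8.18 and 8.14 in thymus CCR7- and 7.12, 7.74 and 7.44 in thymus CCR7+ arrays. In the spleen they were 9.74, 9.84 and 9.39 in CCR7-, 7.76, 8.42 and 8.65 in CCR7+ and 8.03, 7.92 and 8.02 in polyI:C arrays. The spleen CCR7- arrays were above all others. The changes were -0.90 in the thymus (adjusted p = 0.00658), -1.38 in the spleen (adjusted p = 0.000367) and -1.67 for polyI:C cells (adjusted p = 3.65e-05), each with an SE of 0.23.

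Irak3 (probe set 1435040_at), also called IRAK-M, a kinase-like inhibitor of signalling from Myd88, was the 1 gene of the 10 that was higher in mature cells of every kind. Its log2 values were 3.31, 2.94 and 3.63 in thymus CCR7- and 5.07, 5.72 and 5.08 in thymus CCR7+ arrays. In the spleen they were 3.48, 3.34 and 3.32 in CCR7-, 4.33, 4.83 and 4.58 in CCR7+ and 5.37, 5.32 and 5.49 in polyI:C arrays. All 6 immature arrays were below the filter value and below all 9 mature arrays. The rise was 2.00 in the thymus (adjusted p = 3.03e-06), 1.21 in the spleen (adjusted p = 0.000395) and 2.01 for polyI:C cells (adjusted p = 1.92e-06), each with an SE of 0.20. Because Irak3 passed the filter through the mature arrays only, its call has no weight as support for a pattern among the 10 genes. Its other probe set (1430704_at) exceeded the filter value in no array and gave changes of -0.12, 0.13 and 0.25.

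Both endosomal and surface receptors included genes that fell. In the thymus 2 of 5 endosomal and 2 of 2 surface receptors were lower, in the untreated spleen 3 of 5 and 1 of 2, and in polyI:C cells 2 of 5 and 1 of 2, beside 20.4%, 24.1% and 28.0% of all genes. None of the 7 receptors was called higher with maturation in the main fit. Tlr13 was called higher in the thymus with array weights (0.51, adjusted p = 0.0206) and without array 1 of thymus CCR7- (0.63, adjusted p = 0.0271). Tlr2 was called higher for polyI:C cells under 3 alternatives (adjusted p from 0.0324 to 0.0465). Endosomal changes ran from -5.70 to 0.40 in the thymus, from -3.14 to 0.11 in the spleen and from -4.22 to 0.32 for polyI:C cells. Those of the surface receptors ran from -1.91 to -0.58, from -1.93 to -0.15 and from -2.35 to 0.41. Tlr3 and Tlr12 set the lower end of the endosomal range, and Tlr7 and Tlr9 stayed near 0. With 2 surface receptors no test between the classes was made.

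**Figure D3:**
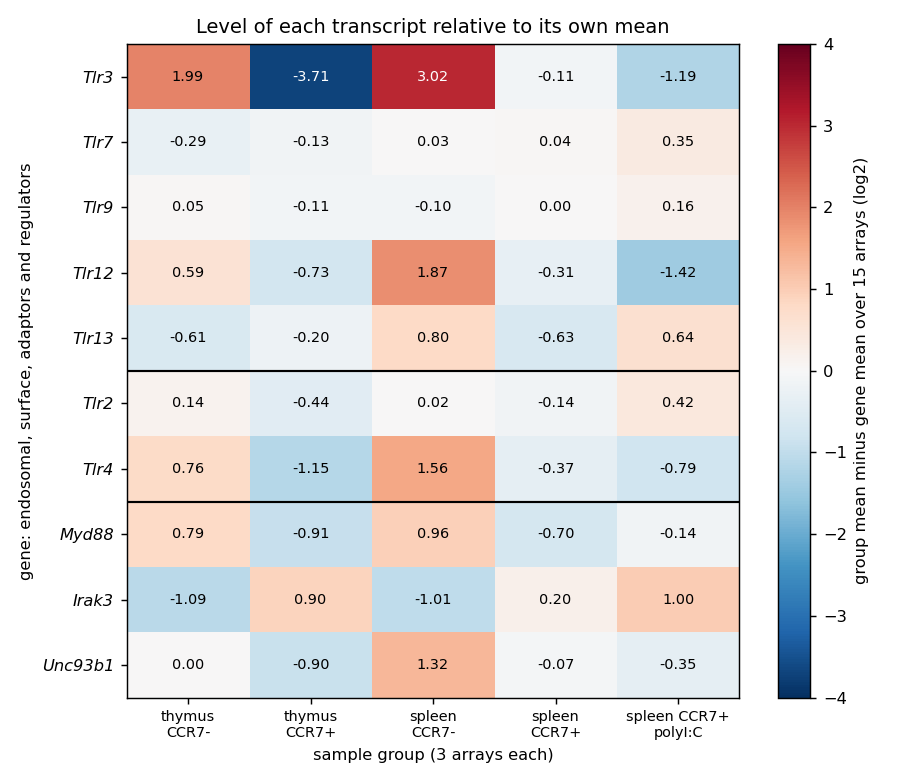
Mean log2 level of each gene (rows) in each group of 3 arrays (columns) minus the mean of that gene over all 15 arrays; red is above and blue below its own mean, and horizontal lines part endosomal receptors, surface receptors and adaptors with regulators. Tlr3 runs from 3.02 in spleen CCR7- to -3.71 in thymus CCR7+, Irak3 has the opposite sign to Myd88 in all 5 groups, and Tlr7 and Tlr9 stay within -0.29 to 0.35.

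Injection of polyI:C, the ligand of Tlr3, was followed by other levels of 4 of the 10 genes in spleen CCR7+ cells, 3 higher and 1 lower, where 18.2% of all genes tested were called, 8.58% higher and 9.66% lower. Tlr13 rose by 1.26 (SE 0.21, adjusted p = 0.000822), Irak3 by 0.81 (SE 0.20, adjusted p = 0.0132) and Myd88 by 0.55 (SE 0.16, adjusted p = 0.0306). Tlr12 fell, with a log2 change of -1.10 or, over both probe sets, -0.61 (adjusted p = 0.0225 and 0.0103). The arrays of the 2 groups did not overlap for any of these 4 genes, which again carries no weight beyond the calls. Tlr13 kept its call under all 26 alternatives. Myd88 lost it under 6, among them a fit of the compared groups only (adjusted p = 0.158) and leaving out array 1 of spleen CCR7+ (0.39, adjusted p = 0.11). Tlr12 lost it under 4 (adjusted p from 0.054 to 0.0763) and Irak3 under 2 (0.0517 and 0.0547). B cell markers, at 10.6 to 12.3 in untreated and 9.63 to 10.3 in polyI:C arrays, were lower in 3 of 5 cases. Neutrophil markers summed to 6.49 to 7.13 in untreated and 7.29 to 7.42 in polyI:C arrays, with 1 of 3 tested called higher. None of 4 monocyte and CD172a+ DC markers and 1 NK cell marker tested was called. The part of these cell types in the values of the 4 genes was not tested. The comparison shares the untreated spleen CCR7+ arrays with the spleen maturation change.

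Tlr3 itself, with values of 7.74, 7.37 and 5.95 after polyI:C and 6.86, 8.68 and 8.77 without it, had a difference of -1.08 (95% confidence interval -2.13 to -0.04) and was not called (adjusted p = 0.153). Without array 1 of spleen CCR7+ the change was -1.70 and was called (adjusted p = 0.0102). Tlr2 had a difference of 0.56 (0.12 to 1.01, adjusted p = 0.0791) and was called without array 2 of spleen CCR7+ (0.83, adjusted p = 0.00579). Tlr4 had a difference of -0.43 (-1.48 to 0.63) and Unc93b1 of -0.28 (-0.78 to 0.22), neither of them called.

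Cytosolic sensors, listed here together with the adaptor Mavs, were mostly higher after polyI:C. Of 11 tested, 7 were higher and none was lower in polyI:C than in untreated spleen CCR7+ cells, where 8.58% of all genes were higher and 9.66% lower (median log2 change 0.98, beside 0.01 over all genes and 0.23 for the 10 genes). Ddx58 (RIG-I), a sensor of double-stranded RNA, rose by 4.21 (adjusted p = 1.84e-09), from a mean of 5.91 ± 0.27 to 10.12 ± 0.23 (SD, n = 3). The mean of all Ddx58 probe sets rose by 2.62. Zbp1, a sensor of Z-form nucleic acids, rose by 3.58 (adjusted p = 1.95e-09) and Dhx58, a regulator of RIG-I, by 2.85 (adjusted p = 5.2e-05, and 1.24 over all its probe sets). Ifih1 (MDA5), a sensor of long double-stranded RNA, rose by 2.01 (adjusted p = 1.49e-06). Aim2, a sensor of cytosolic DNA, was lower in polyI:C than in spleen CCR7- cells (-1.17) and lower with maturation in the untreated spleen (-0.92). All its mature arrays were below the filter value. Aim2 passed the filter through the CCR7- arrays only, so its place in the counts that follow has no weight. Against spleen CCR7- cells 5 were higher and 4 lower in polyI:C cells (18.4% and 28.0% of all genes). With maturation in untreated mice 6 of 11 were lower and 2 higher in the thymus (20.4% and 16.8% of all genes), and 6 lower and 1 higher in the spleen (24.1% and 12.3%). Cgas (-1.68 and -1.42), Nod1 (-1.34 and -1.39) and Dhx58 (-1.45 and -1.43) fell in both. Over the mean of its probe sets the Dhx58 change was -0.55 in the thymus, and in the spleen it was -0.40 and no longer called (adjusted p = 0.052). Those higher were Sting1 (0.84, named after its value was seen) and Ddx58 (0.54, not called over the mean of its probe sets) in the thymus and Ifih1 (0.73) in the spleen. Whether the response of the cytosolic sensors differs from that of the Toll-like receptors was not tested.

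**Figure D4:**
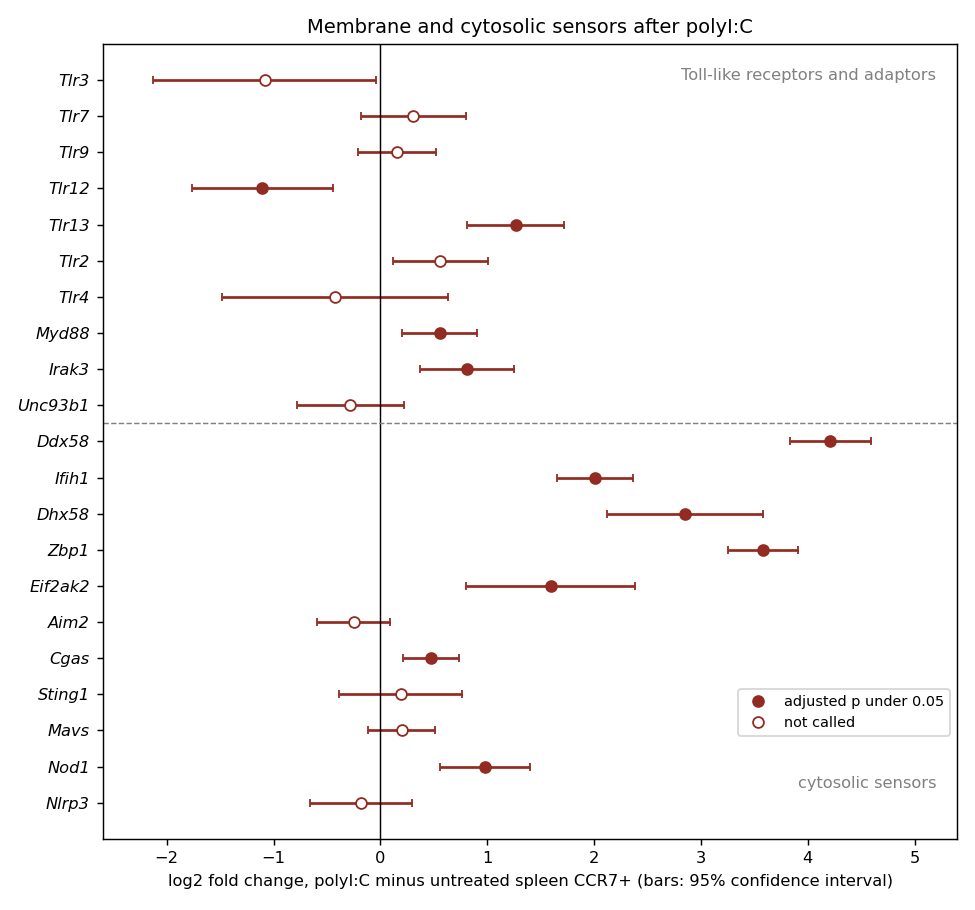
Log2 fold changes with 95% confidence intervals (x axis) in spleen CCR7+ cells, polyI:C minus untreated (3 arrays each). At the top are the 10 Toll-like receptor and adaptor genes, at the bottom 11 genes listed as cytosolic sensors, the adaptor Mavs among them. Filled points passed an adjusted p of 0.05: the 10 genes lie between -1.10 and 1.26, and the filled sensors reach 4.21 (Ddx58).

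Between immature cells, 3 of the 10 genes were lower in the thymus than in the spleen and none was higher, where 8.16% of all genes tested were called, 3.24% lower and 4.92% higher. These were Tlr13 (-1.41, SE 0.21, adjusted p = 0.000553), Unc93b1 (-1.32, SE 0.23, adjusted p = 0.00201) and Tlr12 (-1.28, SE 0.31, adjusted p = 0.0173, or -0.71 over both probe sets). The Tlr12 call was lost without array 2 or 3 of thymus CCR7- or array 1 or 2 of spleen CCR7- (adjusted p from 0.0535 to 0.0949). Tlr3 (-1.03) and Tlr4 (-0.80) were not called (adjusted p = 0.279 and 0.47). That their arrays did not overlap between the tissues carries no weight, as the share of all genes without overlap is not given here. In a fit of the 12 untreated arrays 3 of the 10 genes were called both without and with a replicate block within each CCR7 state, and of all genes 1091 and 2146.

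Between untreated mature cells, Tlr3 (-3.59) and Unc93b1 (-0.84, SE 0.23, adjusted p = 0.0301) were lower and Irak3 (0.71, SE 0.20, adjusted p = 0.0365) was higher in the thymus. Of all genes tested 12.2% were called, 3.47% lower and 8.71% higher. Only the Tlr3 call held in a fit of the compared groups alone and without array 3 of spleen CCR7+. Unc93b1 was lost under 6 alternatives (adjusted p up to 0.129) and Irak3 under 6 (up to 0.18). Over the 12 untreated arrays Tlr13 (0.42) had an adjusted p of 0.264 without and 0.0217 with a replicate block within each CCR7 state, and 1634 and 3501 of all genes were called. The block over all 15 arrays did not call Tlr13. Against polyI:C spleen cells, in which tissue and treatment both differ, Tlr3 (-2.51), Tlr2 (-0.87), Tlr13 (-0.84) and Myd88 (-0.77, adjusted p = 0.00374) were lower in mature thymic cells, where 24.1% of all genes were called, 7.40% lower and 16.7% higher. Thymocyte and T cell markers summed to 9.47 to 11.1 in thymus CCR7+ and 6.75 to 6.97 in spleen CCR7+ arrays of both kinds. Their part in these values was not tested.

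The difference between thymus and spleen maturation was called for Tlr13 alone among the 10 genes. Over the 12 untreated arrays it was called for Tlr13 and Tlr3 without a block, and for Tlr13, Tlr3 and Tlr12 with a replicate block within each CCR7 state. Of all genes 415 and 1462 were called in these fits. Differences of the other genes were -0.43 for Tlr2, 0.01 for Tlr4, -0.05 for Myd88, 0.79 for Irak3 (95% confidence interval 0.17 to 1.41, adjusted p = 0.186) and 0.48 for Unc93b1. The interval for Tlr4 (-1.48 to 1.51) was the widest of these.

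Other genes of the pathway moved in both directions. Of 64 tested from 8 lists, 17 were higher and 16 lower in thymic maturation, 12 and 17 in the untreated spleen, and 24 and 16 in polyI:C cells against spleen CCR7- cells. Of all genes tested 16.8% were higher and 20.4% lower, 12.3% and 24.1%, and 18.4% and 28.0% in the same order, which also stands as background for the lists that follow. Their medians of 0.05, -0.11 and 0.11 were close to those of all genes. Tlr1, a partner of Tlr2, averaged 4.94 ± 0.22 and 5.46 ± 0.23 in thymic CCR7- and CCR7+ cells, and 5.45 ± 0.32, 7.73 ± 0.07 and 6.37 ± 0.69 in spleen CCR7-, CCR7+ and polyI:C cells (SD, n = 3 each). Only the untreated spleen showed a rise of over 2-fold (2.29, adjusted p = 2.33e-05), and polyI:C cells were lower than untreated ones (-1.36, adjusted p = 0.00306). B cell marker sums were also highest in the untreated spleen CCR7+ arrays (10.6 to 12.3), and their part in the Tlr1 values was not tested. Tlr6, the other partner of Tlr2, was named for its role and had changes of -0.66, -0.35 and -0.73, the first and the last of them called.

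Among adaptors, Tirap, which links Tlr2 and Tlr4 to Myd88, was lower by like amounts in all 3 kinds of mature cells (-1.66, -1.67 and -1.71, adjusted p from 2.03e-06 to 7.19e-06). Ticam1, the adaptor of Tlr3, was also named for its role. It averaged 6.31 and 6.34 in thymic CCR7- and CCR7+ cells and 6.35, 6.55 and 6.81 in spleen CCR7-, CCR7+ and polyI:C cells, with changes of 0.03, 0.20 and 0.46, of which the last was called. Pik3ap1, an adaptor between these receptors and phosphoinositide kinase, fell by 3.65 in the thymus (log2 change -3.65) and by 1.93 in the spleen (log2 change -1.93), with changes of -2.07 and -1.16 over all its probe sets. It was higher in polyI:C than in untreated cells (1.30, or 0.75 over all its probe sets and 0.84 without array 1 of spleen CCR7+). That call was lost with the compared groups alone (adjusted p = 0.0872).

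Of 8 tested genes for ligand binding and receptor folding, 1 was higher and 3 were lower in the thymus, 1 and 4 in the untreated spleen, and 1 and 5 in polyI:C cells. Ly96, the lipopolysaccharide-binding partner of Tlr4, was higher in all 3 (2.06, 2.49 and 1.77, adjusted p from 1.54e-05 to 0.000128), while Tlr4 was lower. Cd36, a co-receptor of Tlr2, had changes of -4.65, -1.29 and -4.36, and the thymus and spleen changes differed (-3.36, adjusted p = 0.00179). Cd14, which hands lipopolysaccharide to Tlr4, fell in the spleen (log2 change -1.30, or -0.83 without array 1 of spleen CCR7+) and in polyI:C cells (-2.33). Its change in the thymus was -0.82 and was not called (adjusted p = 0.0524). Hsp90b1, a chaperone of most Toll-like receptors, was lower in all 3 (-1.39, -1.17 and -1.25), and its probe set of largest variance gave -2.17 in the thymus. Cd180 (RP105), a relative of Tlr4 without its signalling domain, had changes of -2.43, -0.79 and -1.92, the first and the last called. It was lower in polyI:C than in untreated cells (-1.13, adjusted p = 0.0357), a call lost when any of 5 arrays was left out (adjusted p from 0.0507 to 0.118). The call was also lost with quantile normalisation repeated (adjusted p = 0.0574) and with array weights (adjusted p = 0.0883).

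Endosomal processing and transport genes changed in opposite directions. Lgmn, a protease that cleaves endosomal receptors, rose by 3.25, 1.93 and 4.41 (adjusted p = 6.41e-07, 0.000134 and 2.36e-08). The cathepsins Ctsb (1.2) and Ctsl (1.10, or 0.53 over all its probe sets), proteases of the same compartment, rose in the thymus. Their splenic changes were 0.14 and 0.09, neither called. The Ctsb call in the thymus was lost with its probe set of largest variance (1.32, adjusted p = 0.0676). Slc15a4, an endosomal transporter, had changes of 0.56, 0.54 and 1.08, of which the last was called (0.53 over all its probe sets). Rab7b, a GTPase that sends Tlr4 and Tlr9 to lysosomes, had changes of -5.26, -2.69 and -4.18 (adjusted p = 5.89e-08, 5.41e-05 and 3.48e-07). Its mean fell from 11.66 ± 0.11 to 6.40 ± 0.31 in the thymus and from 11.65 ± 0.16 to 8.96 ± 0.69 in the spleen (SD, n = 3). Of the 10 genes tested in this list 3 were higher and 1 lower in the thymus, 1 and 1 in the spleen, and 5 and 1 in polyI:C cells.

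Downstream of the receptors, 7 of 13 kinases and ligases were higher and 1 was lower in the thymus, 5 and 2 in the spleen, and 7 and 1 in polyI:C cells. Traf6, the ubiquitin ligase that acts after Myd88 and the IRAK kinases, rose by 1.55, 1.34 and 1.90 (adjusted p from 1.57e-06 to 9.15e-05). Ikbkb, a kinase that activates NF-kB, rose by 1.58, 1.17 and 1.29, and its probe set of largest variance gave 1.78 in the spleen. Ikbke, a related kinase, rose by 1.27, 0.84 and 0.58, the last of these lost without array 2 of spleen CCR7- (adjusted p = 0.0508). It passed the filter through the mature arrays only, so its place in the count has no weight. Peli1, a ubiquitin ligase of the pathway, rose by 1.05, 1.0 and 1.41, and its probe set of largest variance gave 2.19 in the spleen and 2.34 for polyI:C cells. Map3k7, a kinase between Traf6 and NF-kB, was lower (-1.0, -1.30 and -2.02, and -0.46, -0.62 and -0.75 over all its probe sets), and the first call was lost without array 2 of thymus CCR7- or array 1 of thymus CCR7+ (adjusted p = 0.0537 and 0.0676). Of 10 inhibitors tested 3 were higher and none lower in the thymus, 2 and none in the spleen, and 2 and 2 in polyI:C cells. Among them Tnfaip3 (1.28, 1.58 and 1.36) and Tnip1 (1.10, 1.34 and 1.85) were higher in all 3 comparisons. Atf3, a transcriptional repressor of cytokine genes, had changes of -0.21, -0.47 and -2.13, of which the last was called. That call was lost without array 3 of spleen CCR7- or array 1 or 2 of polyI:C cells (adjusted p from 0.062 to 0.116). Irf7, the interferon regulatory factor downstream of Myd88 in endosomal signalling, averaged 10.61 and 9.11 in thymic CCR7- and CCR7+ cells and 8.23, 6.75 and 11.51 in spleen CCR7-, CCR7+ and polyI:C cells. It thus fell with untreated maturation (log2 changes -1.5 and -1.48) and was 4.76 higher in polyI:C than in untreated spleen CCR7+ cells (adjusted p = 1.48e-06). Irf1, another member of that family, rose by 2.75, 1.86 and 2.18. Irf8, a factor that XCR1+ DCs need to develop, was lower in all 3 (-0.71, -1.06 and -1.34), the first lost with its probe set of largest variance (-0.53, adjusted p = 0.111).

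The genes most like each of 7 members over the 15 arrays were found by the root mean square difference of log2 values after each gene was centred on its own mean. P2ry14 (0.34), Slamf8 (0.50) and Itga8 (0.58) were closest to Tlr3, whose own root mean square around its mean was 2.44. Morc2a, Gnaq and Ppp1r12b (0.34 to 0.36) were closest to Tlr12, and Tnfaip8l2, Il16 and Gpr18 (0.38 to 0.40) to Tlr4. Rtl5, Rnf144b and Nqo2 (0.22 to 0.25) were closest to Myd88, and Mefv, Gpr4 and Pik3cb (0.26 to 0.27) to Unc93b1. Arfgap3, Phf21a and Ypel5 (0.23 to 0.27) were closest to Irak3. For Tlr13 the nearest were Erlin2, Inpp5k and Cystm1, at 0.34 to 0.39 against its own 0.65. This is a description of 15 arrays that share groups and normalisation.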

How the data were processed

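Cells were sorted, and 40 ng of RNA per sample was amplified in 2 rounds of cRNA synthesis before hybridisation, per the labels' protocols. The authors deposited log2 values made with RMA and the affy package, per the submitters' processing notes; their versions, and which arrays were normalised together, were not given in the sources used here. Of 45101 probe sets 34958 carried 1 symbol, 932 several and 9211 none in the annotation used. Arrays were grouped by title and tested with limma 3.58.1 in R 4.3.3, as a model of 5 group means over all 15 arrays with 8 comparisons (eBayes, 10 residual and 4.01 prior degrees of freedom). Adjusted p-values are Benjamini-Hochberg values over the 13629 genes above 4.39 in at least 3 arrays, and changes are differences of group means on the log2 scale. An exact test of 3 arrays against 3 could not go below p = 0.1, and the number of arrays limits the precision.

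The 10 genes, the pathway and marker lists and the tests were chosen with earlier results of these data known. All 10 genes are named, with up to 3 rises and 3 falls of at least 2-fold from each list in the maturation and polyI:C comparisons, and the 3 genes most alike for members called at least 2-fold apart in 2 or more comparisons. The model was tested on simulated data. Promoters are RefSeq sequences of GRCm38.p6, without the 50 bases after the start. Tried were 13 alternatives beside leaving out each of the 15 arrays: filters, probe set rules, normalisations, eBayes settings, array weights, fewer groups and replicate blocks. Replicate numbers come from the titles. Residuals of same-numbered arrays correlated over 0.1 in all 3 pairs between thymus CCR7- and spleen CCR7- (r from 0.52 to 0.57 across genes) and between thymus CCR7+ and spleen CCR7+ (0.42 to 0.59), and in no other pair of groups, so the numbers were taken to pair samples there.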

Additional observations from a re-analysis of the deposited data

Results flagged for a closer look

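Thymus and spleen maturation changes differed by test for Tlr13 and for 6 of the 64 other pathway genes tested, where 3.18% of all genes were called. Each value is the thymus log2 change minus the spleen log2 change, with limma and Benjamini-Hochberg adjustment over all genes. For Tlr13 the difference was 1.83 (adjusted p = 0.00308), from 0.40 in the thymus and -1.43 in the spleen. For Cd36, a co-receptor of Tlr2, it was -3.36 (adjusted p = 0.00179), from -4.65 and -1.29. For Rab7b, a GTPase of the endosomal route, it was -2.57 (adjusted p = 0.0109), from -5.26 and -2.69. These 3 kept their calls under every alternative run.

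The remaining 4 were less firm. For Tlr1 the difference was -1.77 (adjusted p = 0.0226), from 0.52 and 2.29, and the call was lost when 1 of 4 arrays was left out (adjusted p from 0.0531 to 0.0637). For Ctsb, an endosomal protease, it was 1.05 (adjusted p = 0.0291), from 1.2 and 0.14. For Ifih1, the cytosolic RNA sensor MDA5, it was -0.96 (adjusted p = 0.0395), from -0.24 and 0.73. For Pik3ap1 it was -1.72 (adjusted p = 0.0405), from -3.65 and -1.93. Ctsb, Ifih1 and Pik3ap1 each lost the call under 8 or more alternatives.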

How the results depend on the processing

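None of the 35 called values of the 10 genes changed sign under the 13 alternatives or with 1 array left out, while 12 of the 45 values not called did, the largest of them Tlr4 for polyI:C against untreated cells (-0.43). The number of the 10 called stayed within 1.5 times in thymic, splenic and polyI:C maturation and between immature cells (with 1 array left out 6 to 7, 7 to 7, 6 to 7 and 2 to 3), and in thymus CCR7+ against polyI:C cells (4 to 5). For polyI:C against untreated cells it went from 4 to 2 with array weights, and ranged from 1 to 4 with 1 array left out. Between untreated mature cells it went from 3 to 1 when the model held the compared groups only, and ranged from 1 to 3. For the difference between tissues it went from 1 to 2 with array weights, the compared groups only or, equally, the 12 untreated arrays only, ranged from 1 to 2, and was 3 with a replicate block within each CCR7 state on those 12 arrays. The last pair of fits was chosen after seeing the data. The planned replicate block over all 15 arrays changed none (7, 7, 6, 4, 3, 3, 4 and 1 called). Over all genes, 2486 calls for polyI:C against untreated cells became 1081 with the compared groups only, 1112 between immature cells became 1988 with array weights, 1660 between mature cells became 802 with the compared groups only or 974 without thymus CCR7+ array 2, and 433 for the difference became 270 without thymus CCR7- array 3. Over the 12 untreated arrays the last 3 of these counts were 1091, 1634 and 415 without and 2146, 3501 and 1462 with the block within each CCR7 state. Irak3 was not tested under the 60th percentile filter or over the mean of its probe sets, which fell below the filter. Signal close to background limits Tlr7, Irak3 and the lowest Tlr3 and Tlr4 values.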
